A study of Mus musculus with 48 samples.

Results

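The difference in response to fentanyl between 2 kinds of nucleus accumbens neuron was measured as an interaction in messenger RNA bound to tagged ribosomes. For each gene the response of D1 neurons (fentanyl minus water) was set against the response of D2 neurons (fentanyl minus water), averaged over male and female mice, so that a value above 0 means a D1 response above the D2 response on the log2 scale. All 48 libraries entered a single model, and 18270 of 54838 genes held enough reads to be tested. D1 libraries came from Drd1Cre x Rpl22HA mice and D2 libraries from A2ACre x Rpl22HA mice, in which Cre made under the D1 receptor gene or the adenosine receptor gene Adora2a turns Rpl22, a protein of the large ribosomal subunit, into a form with a haemagglutinin tag (RiboTag). All mice carried the tagged allele and a Cre driver, and the labels call the groups fentanyl abstinence and water abstinence. Tissue was taken on day 10, per the labels, which give no age, strain or dose. Cell type, sex and treatment gave 8 groups with 6 libraries in each, and every library was a pool of 4 mice, so that every p-value speaks of pools and not of single mice. A gene counts as called where its p-value, adjusted over all genes tested, is under 0.05.

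Medium spiny neurons are the inhibitory output neurons of the nucleus accumbens, the ventral part of the striatum, which serves motivated behaviour. D1 neurons carry the Gs-coupled dopamine D1 receptor with the peptides dynorphin and substance P, whereas D2 neurons carry the Gi-coupled D2 receptor, the adenosine receptor Adora2a and enkephalin. Fentanyl is an agonist of the mu-opioid receptor, which inhibits neurons of both kinds as well as the interneurons and inputs around them. An interaction asks whether the drug history left a different mark on the translated RNA of the 2 neuron types, which is not shown by a change that passes a test in one type and not in the other.

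The libraries held 20211543 to 42584762 reads in genes, with a mean of 27153238 ± 2712615 in D1 (SD, n = 24) and 32690424 ± 3511626 in D2 (SD, n = 24). The pull-downs matched their labels: the 9 markers of D1 neurons summed to 2960 to 4210 CPM (reads of a gene scaled to library size) in D1 libraries and 548 to 772 CPM in D2 libraries. The 7 measured markers of D2 neurons summed to 1510 to 3950 CPM in D1 and 15300 to 22500 CPM in D2 libraries. Markers of each type were thus present in the pull-down of the other, and the source of those reads was not tested. Of the 48 libraries, 0 went against their labelled sex. The sixth library of D1 female water stood farthest from its group, with an SD of 0.383 across genes in log2 CPM against 0.108 to 0.274 in the others, and 17.464% of its reads lay outside exons. The fifth library of D1 female fentanyl was the next, and the counts of calls, the list medians over both sexes and most named genes were recomputed without both, with 0 genes called. In such bulk RNA, fewer cells of a type and less RNA per cell cannot be told apart.

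No gene's fentanyl response differed between D1 and D2 neurons at the threshold: 0 of 18270 genes were called (0%), and the smallest adjusted p was 0.323 (edgeR quasi-likelihood test). At an unadjusted p under 0.05, 825 genes stood (4.52%), of which 423 lay above 0 (2.32%) and 402 below (2.2%), where evenly spread p-values would give 914. The median interaction over all genes was 0 on the log2 scale, 48.4% of genes lay above 0, and the central 95% of estimates ran from -0.62 to 0.6. DESeq2, run as an alternative, called 6 genes, and limma voom called 0 with 1261 at an unadjusted p under 0.05.

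The intervals show how large a difference could have gone uncalled, and that depended on the level of the gene. The 95% interval reached a median of 0.26 on either side of the estimate and lay wholly within a 2-fold difference for 82.6% of genes. Among the 2205 genes over 100 CPM, 99.9% had an interval within 2-fold and 98.8% within 1.5-fold. At 10 to 100 CPM the shares were 99.7% and 98% of 6940 genes, and at 1 to 10 CPM 93.4% and 63.5% of 4787. Under 1 CPM, by contrast, the interval stayed within 2-fold for 34.4% of 4338 genes. For most well-expressed genes a 2-fold difference between the responses of D1 and D2 neurons is therefore outside the interval, and for genes under 1 CPM it mostly is not. Estimates beyond 2-fold numbered 293, of which 248 belonged to genes under 1 CPM.

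**Figure D1:**
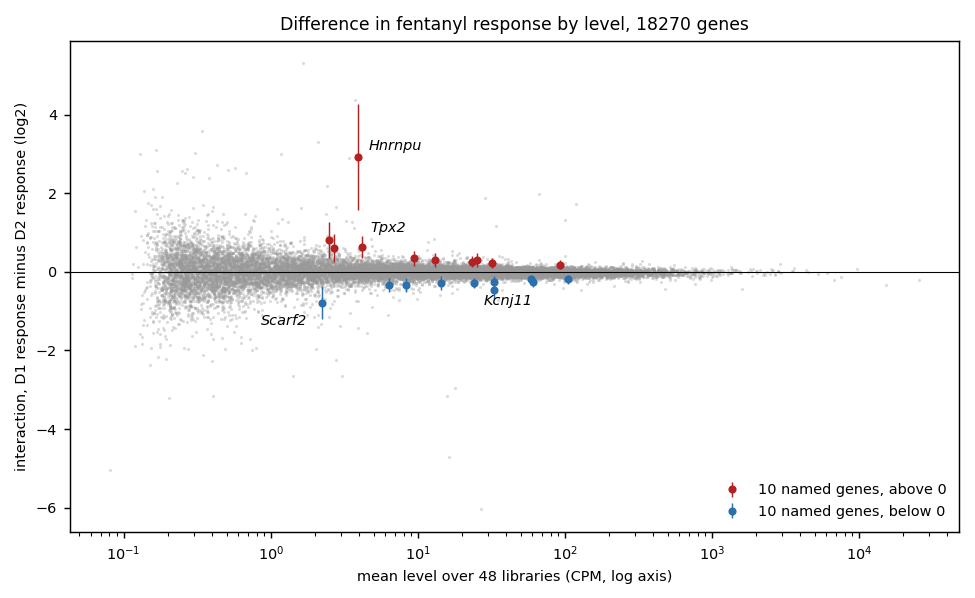
The interaction of each of 18270 tested genes (vertical axis, log2, D1 response minus D2 response) against its mean level over 48 libraries (horizontal axis, CPM, log scale). Coloured points are the 10 named genes on each side of 0 with their 95% intervals, none of them called; the cloud narrows as the level rises, and 248 of the 293 estimates beyond 2-fold lie under 1 CPM.

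The receptors and peptides of the opioid system did not differ in response at the threshold, and their intervals were narrow for several. Oprm1, the mu-opioid receptor on which fentanyl acts, held 2.71 to 6.08 CPM in D1 water with a median of 4.3 and 3 to 6.03 CPM in D1 fentanyl with a median of 4.58. In D2 libraries it held 1.68 to 3.41 CPM in water with a median of 2.21 and 1.36 to 3.2 CPM in fentanyl with a median of 2.08. The fentanyl and water libraries overlapped over most of their range in both types, and the interaction was 0.15 (95% interval -0.25 to 0.54). Oprk1, the receptor of dynorphin, had an interaction of 0.16 (-0.04 to 0.35), with medians of 63.8 CPM in D1 water, 68.7 in D1 fentanyl, 40.5 in D2 water and 38.4 in D2 fentanyl. Oprd1, the delta receptor, stood at 0.07 (-0.25 to 0.4), and Oprl1, the nociceptin receptor, at 0 (-0.15 to 0.16).

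Among the opioid peptides, Penk, the precursor of enkephalin, had an interaction of 0.06 (-0.24 to 0.36). Its level was a marker of the pull-down rather than of the drug, with medians of 2350 CPM in D1 water, 2560 in D1 fentanyl, 16700 in D2 water and 17200 in D2 fentanyl. Pdyn, the precursor of dynorphin, stood at -0.04 (-0.39 to 0.3), and its medians were 597 CPM in D1 water, 634 in D1 fentanyl, 36.8 in D2 water and 40 in D2 fentanyl. Pnoc, the precursor of nociceptin, stood at 0.25 (-0.29 to 0.8), and Pomc, the precursor of beta-endorphin, at 0.1 (-0.21 to 0.42). Of the 8 genes of the list, 7 lay above 0 with a median of 0.09, 0 were called, and 0 had an unadjusted p under 0.05. The interval stayed within 2-fold for all 8 and within 1.5-fold for 7 of them, Pnoc being the exception.

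Dopamine receptors and their signalling genes lay closer to 0 still. Drd1 held 429 to 603 CPM in D1 water with a median of 468 and 395 to 576 CPM in D1 fentanyl with a median of 460. The D2 libraries held 38.3 to 62.7 CPM of it in water and 37.4 to 59.6 CPM in fentanyl, and the interaction was -0.01 (-0.21 to 0.19). Drd2 stood at 0.04 (-0.35 to 0.44) and Adora2a at 0.03 (-0.61 to 0.67). The wider interval of Adora2a goes with its spread in D1 libraries, where it ran from 23.8 to 181 CPM, against 728 to 1130 CPM in D2 libraries. Of 23 tested genes for dopamine and cAMP signalling, 12 lay above 0 and 11 below with a median of 0, 0 were called, and 21 had intervals within 1.5-fold. Their range ran from -0.1 for Adcy5, the adenylyl cyclase of striatal neurons, to 0.29 for Drd3, and Ppp1r1b, which encodes DARPP-32, stood at -0.05 (-0.23 to 0.13). Rpl22, whose tagged copy the pull-down uses, stood at -0.17 (-0.37 to 0.03) with an unadjusted p of 0.0873 in edgeR.

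**Figure D2:**
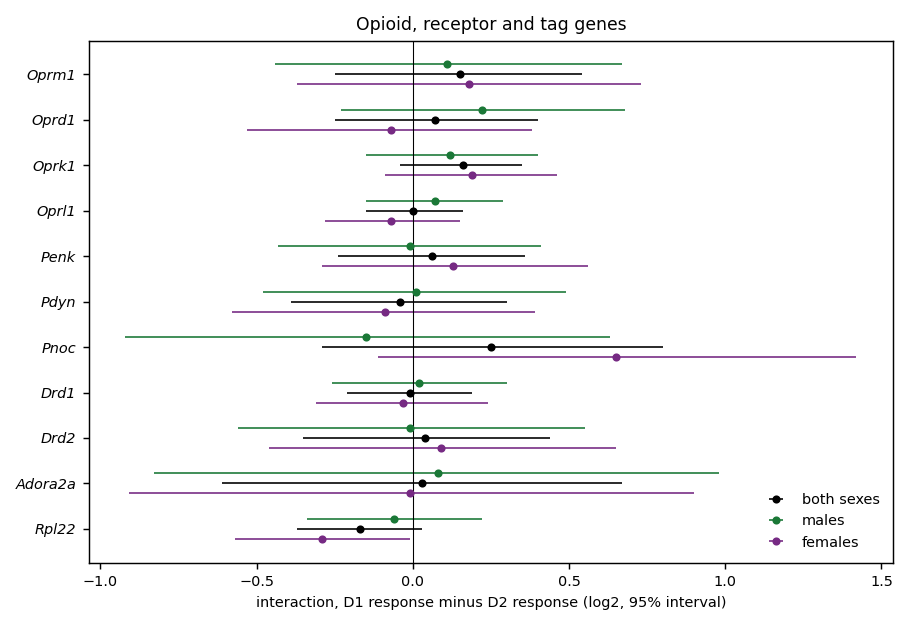
Interaction of opioid genes, dopamine and adenosine receptors and Rpl22 (horizontal axis, log2, D1 response minus D2 response) with 95% intervals, over both sexes in black, in males in green and in females in purple. Every interval over both sexes includes 0; Oprl1 has the narrowest interval among the receptors over both sexes (-0.15 to 0.16) and Adora2a the widest (-0.61 to 0.67).

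The genes with the smallest p-values were named by rank among those with a mean of at least 2 CPM, 10 on each side of 0, and none was called. Below 0, Kcnj11 came first, which encodes the pore-forming subunit of ATP-sensitive potassium channels, which couple metabolism to excitability (chr7:46093953-46100764 on GRCm38, minus strand). D1 libraries held 20.7 to 27.9 CPM of it in water with a median of 25.5 and 19.7 to 24.4 CPM in fentanyl with a median of 22.1. D2 libraries held 20.3 to 27.5 CPM in water with a median of 23.9 and 23.1 to 29.5 CPM in fentanyl with a median of 25.4. The medians thus lay lower with fentanyl in D1 and higher in D2, with overlap between water and fentanyl in both. Its interaction was -0.29 ± 0.0642 (SE; 95% interval -0.42 to -0.16; edgeR adjusted p = 0.323), at -0.25 in males and -0.34 in females. DESeq2 gave -0.3 with an adjusted p of 0.0312, and the adjusted p ran from 0.0312 to 0.577 over 14 alternatives. Abcc8, which encodes the channel's regulatory subunit SUR1, stood at -0.03 (-0.23 to 0.17).

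Rprm, which encodes Reprimo, a p53-induced protein linked to arrest in G2, came next. It held 34.3 to 59.4 CPM in D1 water with a median of 43.4 and 24.2 to 41.8 CPM in D1 fentanyl with a median of 34.9. In D2 libraries the ranges were 23 to 32.8 CPM in water and 23.3 to 33.8 CPM in fentanyl, with medians of 24.8 and 27.8. Its interaction was -0.47 ± 0.109 (SE; edgeR adjusted p = 0.339), at -0.31 in males and -0.62 in females, and under DESeq2 the adjusted p was 0.0562. Zhx3, a zinc finger and homeobox repressor, stood at -0.18 ± 0.0483 (SE), with 49.8 to 64.6 CPM in D1 water against 53.3 to 58 CPM in D1 fentanyl. In D2 libraries Zhx3 held 51.9 to 62.3 CPM in water and 56 to 70.9 CPM in fentanyl.

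The others below 0 included 2 genes of the synapse. Grik5, the GluK5 subunit of kainate receptors, stood at -0.19 ± 0.0555 (SE), with medians of 110 CPM in D1 water, 103 in D1 fentanyl, 101 in D2 water and 108 in D2 fentanyl. Ppfia4, which encodes liprin-alpha-4 of the presynaptic active zone, stood at -0.27 ± 0.0811 (SE). Hipk4, a homeodomain-interacting kinase, stood at -0.25, March9, a membrane-bound ubiquitin ligase, at -0.29, Iqce at -0.34, Myadml2 at -0.34 and Scarf2, a scavenger receptor family member, at -0.79. Another gene overlaps 30.4% of the exonic bases of Myadml2, where reads can be set aside as ambiguous, so that its counts are uncertain. All 10 genes below 0 also lay below 0 in each sex, a direction in which the choice by p-value has a part. Their edgeR adjusted p ran from 0.323 to 0.933.

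**Figure D3:**
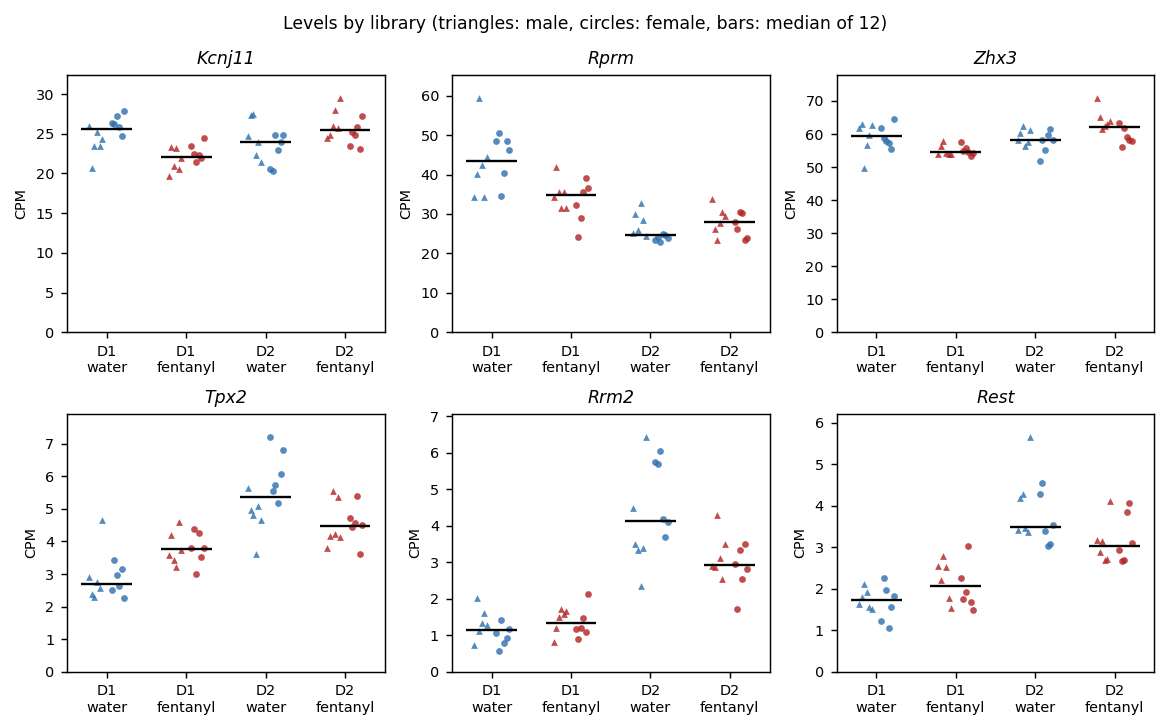
Level of 6 named genes in every library (vertical axis, CPM, from 0; triangles male, circles female; blue water, red fentanyl; bars the median of 12 libraries). Kcnj11, Rprm and Zhx3 have lower medians with fentanyl in D1 and higher ones in D2, and Tpx2, Rrm2 and Rest the reverse; water and fentanyl libraries overlap in every panel.

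Above 0, Tpx2 came first, which encodes a spindle assembly factor that activates Aurora A kinase (chr2:152847964-152895321 on GRCm38, plus strand). D1 libraries held 2.27 to 4.67 CPM in water with a median of 2.7 and 2.99 to 4.59 CPM in fentanyl with a median of 3.76. D2 libraries held 3.61 to 7.2 CPM in water with a median of 5.36 and 3.6 to 5.56 CPM in fentanyl with a median of 4.47. The sixth library of D1 male water held the 4.67 CPM, and the other 5 of its group held 2.28 to 2.9 CPM. The interaction was 0.64 ± 0.138 (SE; 95% interval 0.36 to 0.92; edgeR adjusted p = 0.323), at 0.44 in males and 0.84 in females. Without the sixth library of D1 male water it was 0.73 with an edgeR adjusted p of 0.00617, and DESeq2 on all libraries gave 0.63 with an adjusted p of 0.0285. Over the 14 alternatives that keep all libraries or leave out the distant pair, the adjusted p ran from 0.0285 to 0.577.

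Rrm2, the small subunit of ribonucleotide reductase, had the same order of medians at a lower level. It held 0.564 to 2.01 CPM in D1 water and 0.804 to 2.12 CPM in D1 fentanyl, with medians of 1.13 and 1.33. In D2 libraries it held 2.35 to 6.42 CPM in water and 1.72 to 4.28 CPM in fentanyl, with medians of 4.14 and 2.92. Its interaction was 0.8 ± 0.229 (SE; edgeR adjusted p = 0.811), at 0.36 in males and 1.24 in females. Rest, the repressor that keeps neuronal genes silent outside neurons, stood at 0.6 ± 0.175 (SE), with medians of 1.73 CPM in D1 water, 2.07 in D1 fentanyl, 3.5 in D2 water and 3.02 in D2 fentanyl. For Rrm2 and Rest the D2 water libraries all lay above the D1 water libraries, so that a difference between the types was present without the drug.

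The cell division list, which holds Tpx2 and Rrm2, was mixed in direction. Of its 20 genes, 13 lay above 0 and 7 below with a median of 0.16, and 0 were called. At an unadjusted p under 0.05 stood 3 genes above 0, Tpx2, Rrm2 and the cyclin Ccna2 (0.78, interval 0.18 to 1.37), beside 2.32% of all genes, and 1 below, the transcription factor E2f1 (-0.31, interval -0.5 to -0.11), beside 2.2%. Birc5, which encodes survivin of the chromosomal passenger complex, is not on the list and was named after its values were seen. It stood at 0.54 (0.09 to 0.98) over both sexes, at -0.29 in males and at 1.36 in females, where its adjusted p was 0.308 in edgeR and 0.047 in DESeq2. Mki67 and Top2a, classical markers of dividing cells, stood at 0.19 (-0.36 to 0.75) and 0.31 (-0.35 to 0.97), and Cdk1 at -0.61 (-1.47 to 0.26). Most of these genes were low, and 7 of the 20 had intervals within 1.5-fold. Markers of non-neuronal cells were also higher in D2 libraries, with endothelial and pericyte markers at 405 to 723 CPM against 58.9 to 97.9 CPM in D1, and 14 of 14 of them were detected and tested. Their part in the values of Tpx2, Rrm2 and Rest was not tested directly. With a score of non-neuronal markers in the model the interaction was 0.61 for Tpx2, 0.65 for Rrm2 and 0.6 for Rest.

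The promoters of Rrm2 and Rprm, taken from the RefSeq table for GRCm38.p6, are shown as 1 gene linked to cell division on each side of 0, chosen after their values were seen. Each runs from 250 bases before the transcription start to 50 after it, and capitals mark matches, on either strand, to the CCAAT box or to TTTGAA, the cell cycle homology element of genes expressed late in the cycle. Rrm2 lies at chr12:24708004-24708303 on the plus strand and Rprm at chr2:54085503-54085802 on the minus strand.
Rrm2: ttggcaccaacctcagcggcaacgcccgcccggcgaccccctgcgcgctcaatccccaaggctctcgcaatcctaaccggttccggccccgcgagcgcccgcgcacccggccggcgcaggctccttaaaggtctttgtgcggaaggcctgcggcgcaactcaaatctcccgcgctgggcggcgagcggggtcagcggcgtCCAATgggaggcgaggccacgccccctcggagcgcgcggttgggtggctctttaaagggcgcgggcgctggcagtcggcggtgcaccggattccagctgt
Rprm: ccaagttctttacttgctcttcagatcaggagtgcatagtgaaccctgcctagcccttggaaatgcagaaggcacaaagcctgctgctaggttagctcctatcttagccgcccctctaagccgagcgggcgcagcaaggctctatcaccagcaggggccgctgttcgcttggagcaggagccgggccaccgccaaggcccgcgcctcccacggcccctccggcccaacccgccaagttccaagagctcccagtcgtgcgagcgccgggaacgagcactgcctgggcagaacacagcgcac
The Rrm2 promoter holds 1 match, a CCAAT box that begins 50 bases before the start, and the Rprm promoter holds 0 matches to either. CCAAT occurs in 37.9% of 27025 promoters of the same length, and in 13 of the 16 genes of the cell division list that the table holds. TTTGAA occurs in 18.1% of all promoters and in 5 of those 16. A match describes letters and is not a bound site.

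The other genes named above 0 concern DNA repair and the nucleolus, lipid turnover, protein folding and actin. Xrcc6, which encodes Ku70 of DNA end joining, stood at 0.26 ± 0.0736 (SE), with medians of 19.3 CPM in D1 water, 22.6 in D1 fentanyl, 27.6 in D2 water and 25.4 in D2 fentanyl. Mybbp1a, a nucleolar protein, stood at 0.22 ± 0.0616 (SE), and Vbp1, a prefoldin subunit, at 0.18 ± 0.0539 (SE). Recql, a DNA helicase, stood at 0.35, Smpd2, a neutral sphingomyelinase, at 0.3 and Capza1, an actin capping subunit, at 0.29. Of the stretches of 50 bases in their transcripts, other genes also hold 36.4% for Recql, 14.6% for Smpd2 and 64.5% for Capza1, so that their counts are uncertain. The edgeR adjusted p of these 6 ran from 0.706 to 0.963.

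Across 43 lists of pathway and marker genes, 756 distinct genes were tested, and 0 were called. At an unadjusted p under 0.05 stood 14 above 0 (1.85%) and 25 below (3.31%), 5.16% together, against 4.52% of all genes. List medians were small: 32 of the 43 lay within 0.1 of 0 on the log2 scale, 17 above it and 26 below, beside a median of 0 over all genes. Members of a list share cells and libraries, so that a count of their directions is a description.

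Genes of excitability and the synapse lay mostly below 0, by little. Of 29 potassium channel genes, 23 lay below 0 with a median of -0.05, and 0 were called. At an unadjusted p under 0.05 stood 4 of them below 0, Kcnj11, Kcna2 (-0.21), Kcnd3 (-0.18) and Kcnc1 (-0.13), beside 2.2% of all genes. Of 24 sodium, calcium and HCN channel genes, 19 lay below 0 with a median of -0.06 (-0.02 without the sixth library of D1 female water). Among them Scn8a, a voltage-gated sodium channel, stood at -0.16 (-0.31 to -0.01) and was not called. Its value was -0.2 without the fifth library of D1 female fentanyl and -0.12 without the sixth of D1 female water, where it was high. Postsynaptic density scaffolds had 16 of 20 below 0 with a median of -0.05 (-0.02 without that library), and Shank2 stood at -0.22 (-0.38 to -0.07; edgeR adjusted p = 1). Synaptic vesicle genes had 18 of 22 below 0 with a median of -0.06, and glutamate receptors 15 of 23 with a median of -0.06 (-0.03 without that library). GABA receptors were centred, with 8 of 14 above 0, a median of 0 and all 14 intervals within 1.5-fold. In all these lists except the GABA receptors the female median lay between -0.13 and -0.18 and the male median between 0.01 and 0.05.

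Genes that make protein also lay slightly below 0. Of 46 cytosolic ribosomal protein genes, 44 lay below 0 with a median of -0.09, at -0.09 in males and -0.08 in females, and all 46 intervals were within 1.5-fold. Without the sixth library of D1 female water the median was -0.04. Their summed level ran from 5900 to 9220 CPM in D1 water and 5780 to 8150 CPM in D1 fentanyl, with medians of 6520 and 6370. In D2 it ran from 6110 to 7710 CPM in water and 6440 to 7110 CPM in fentanyl, with medians of 6410 and 6890. The groups overlapped throughout, and 0 members were called. Translation factors had 19 of 25 below 0 with a median of -0.05 (-0.02 without that library), and Eif1, which selects the start codon, stood at -0.11 (-0.19 to -0.03). Nuclear-encoded respiratory chain genes had 27 of 40 below 0 with a median of -0.05, and the proteasome 20 of 32 above 0 with a median of 0.03.

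Stress and housekeeping lists were centred near 0. Unfolded protein response genes had 15 of 20 above 0 with a median of 0.05, and Hspa5, the main chaperone of the endoplasmic reticulum, stood at 0.18 (0.02 to 0.34). Its medians were 512 CPM in D1 water, 560 in D1 fentanyl, 579 in D2 water and 545 in D2 fentanyl. Cytosolic heat shock genes had a median of 0.02, cholesterol synthesis 0.04, glucocorticoid response -0.02 and circadian clock -0.03. Klf9, a glucocorticoid-induced repressor, stood at -0.15 (-0.26 to -0.04). The actin and spine list had a median of -0.02 with all 34 intervals within 1.5-fold, the kinesin and microtubule list -0.03 and the axon guidance list -0.03. Synaptic adhesion genes had 16 of 24 below 0 with a median of -0.03, and 0 were called. At an unadjusted edgeR p under 0.05 stood 1 above 0, beside 2.32% of all genes, and 3 below, beside 2.2%. The 1 above was Pcdh8, an activity-regulated protocadherin, at 0.39 (0.11 to 0.67; edgeR adjusted p = 1). The lowest value of the list was -0.23, for Cntnap1.

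Neuropeptides had a median of 0 with 9 of 18 on each side, and Crh, the stress peptide corticotropin-releasing hormone, stood at -0.47 (-0.93 to 0). It held 7.2 to 16 CPM in D1 water against 5.04 to 11.4 CPM in D1 fentanyl, and 0.834 to 2.98 CPM in D2 water against 0.991 to 2.24 CPM in D2 fentanyl. The endocannabinoid list had 8 of 9 below 0 with a median of -0.04, histone and DNA modifying enzymes had a median of -0.01 and extracellular matrix genes -0.01. The interferon list had a median of -0.01 and nuclear noncoding RNA 0.01. The 13 mitochondrially encoded genes had a median of 0.23, which was 0 without the fourth library of D2 male water and -0.28 with 2 surrogate variables, and 2 of the 13 intervals were within 1.5-fold. Among them mt-Atp8 ran from 0 to 12 CPM in D2 water and from 0 to 5.7 CPM in D1 water, a spread within groups wider than any difference between them.

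**Figure D4:**
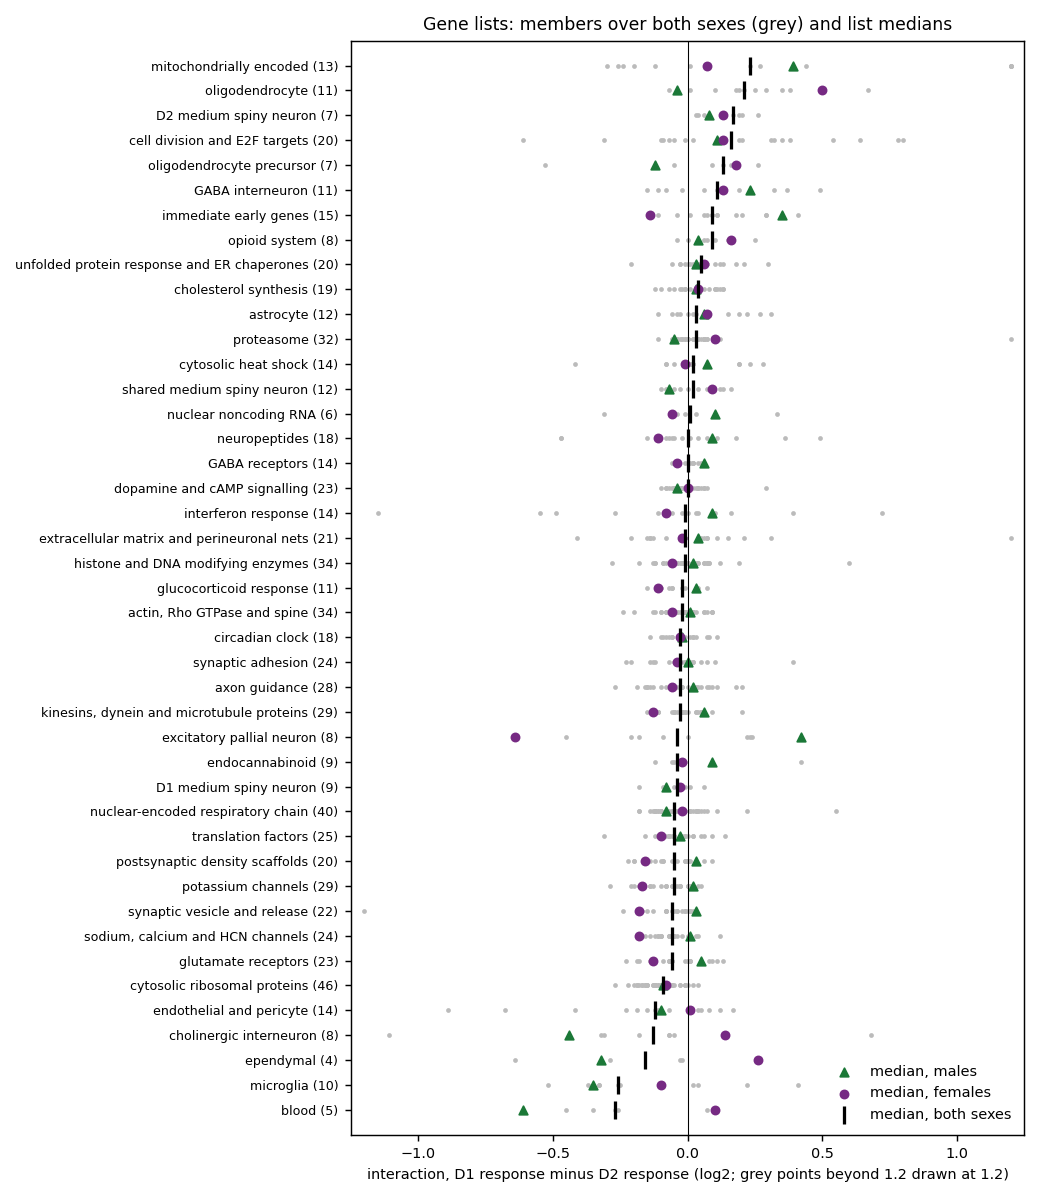
Interaction (horizontal axis, log2, D1 response minus D2 response) of 43 gene lists, with the number of tested genes in parentheses; grey points are members over both sexes, black bars the list median, triangles the median in males and circles in females. Most medians lie within 0.1 of 0; the male and female medians part most for excitatory pallial neuron markers (0.42 and -0.64).

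Markers of neuron types and of other cells were followed with the same contrast, since a pull-down that took in different cells with and without fentanyl would also give an interaction. All 7 measured D2 neuron markers lay above 0 with a median of 0.17, and 7 of 9 D1 neuron markers below 0 with a median of -0.04. In D1 libraries the sum of the D2 markers ran from 1510 to 3770 CPM in water and 1930 to 3950 CPM in fentanyl. Ptprm, a receptor tyrosine phosphatase of that list, stood at 0.26 (0.03 to 0.49). With a score of the other neuron type in the model, Penk, Drd2 and Adora2a changed sign to -0.03, -0.08 and -0.16. The median of the D2 markers was 0.05 with that score. In D1 libraries the score is the mean log2 level of these same D2 markers, and in D2 libraries that of the D1 markers. The marker genes were thus adjusted in part for themselves, so that such a shift is partly built in. The source of their values was not tested. The 12 shared markers of medium spiny neurons had a median of 0.02.

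Oligodendrocyte markers had 10 of 11 above 0 with a median of 0.21, at 0.5 in females and -0.04 in males, and Ugt8a, an enzyme of myelin lipid synthesis, stood at 0.67 (0.18 to 1.16). Their sum ran from 307 to 433 CPM in D1 water, 297 to 476 CPM in D1 fentanyl, 602 to 818 CPM in D2 water and 604 to 899 CPM in D2 fentanyl. The 5 blood genes had a median of -0.27, the 10 tested microglia genes -0.26, the 14 endothelial and pericyte genes -0.12 and the 12 astrocyte genes 0.03. Oligodendrocyte precursor markers had a median of 0.13, the 4 tested ependymal markers -0.16, cholinergic interneuron markers -0.13 and GABA interneuron markers 0.11. Blood genes summed to 7.19 to 22.7 CPM in D1 and 257 to 535 CPM in D2 libraries. Of the members of these lists, 0 were called. The score of non-neuronal markers was made from the oligodendrocyte, blood, microglia, endothelial and pericyte, and astrocyte lists. Their part in other genes' values was tested only through that score, and the part of the other lists was not tested.

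In males alone 0 genes were called (0%), with 696 at an unadjusted p under 0.05 (3.81%), 345 of them above 0 (1.89%) and 351 below (1.92%), and a smallest edgeR adjusted p of 0.709. In females 0 were called (0%), with 1205 at an unadjusted p under 0.05 (6.6%), 538 above 0 (2.94%) and 667 below (3.65%), and a smallest edgeR adjusted p of 0.308. The test of the difference between the sexes called 0 (0%), with 1124 genes at an unadjusted p under 0.05 (6.15%), 527 higher in females (2.88%) and 597 higher in males (3.27%). The female count rested in part on single libraries: it was 957 without the sixth library of D1 female water and 1739 without the fifth of D1 female fentanyl. By DESeq2, 3 genes were called in males, 4 in females, Birc5 among them, and 2 for the difference.

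Immediate early genes, which neurons transcribe within minutes of activity, were the list of pathway genes whose medians differed most between the sexes, at 0.35 in males and -0.14 in females. Over both sexes 13 of 15 lay above 0 with a median of 0.09. Nr4a1, a nuclear receptor of this class, held 34 to 67.6 CPM in male D1 water and 56.5 to 149 CPM in male D1 fentanyl, with medians of 52.2 and 90.9. In male D2 libraries its medians were 131 CPM in water and 86.4 CPM in fentanyl. In females the medians were 93.8 CPM in D1 water, 83.5 in D1 fentanyl, 121 in D2 water and 163 in D2 fentanyl. Its interaction was 1.09 in males and -0.27 in females, a difference of -1.36 ± 0.532 (SE; edgeR adjusted p = 0.754). Fos stood at 0.91 in males and -0.33 in females, Arc at 0.84 and -0.27 and Fosl2 at 0.55 and -0.14. No interaction of these genes was called in either sex or for the difference.

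Markers of excitatory pallial neurons, which are cells of cortex and not of the accumbens, had medians of the same signs, 0.42 in males and -0.64 in females. Slc17a7, the vesicular glutamate transporter of cortical neurons, stood at 0.46 in males and -0.63 in females, and Tbr1, a cortical transcription factor, at 0.63 and -0.64. Their 8 markers summed to 450 to 896 CPM in D1 water, 392 to 778 CPM in D1 fentanyl, 137 to 366 CPM in D2 water and 105 to 637 CPM in D2 fentanyl. None of the summed levels was at 0, and their part in the values of immediate early genes was not tested.

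The genes named for the sex difference were Eef1akmt1, Tmed1 and Abcc9, with a higher interaction in females, and Katnal1, Zbtb34 and Foxf2, with a higher one in males, each at an edgeR adjusted p of 0.694. Katnal1, a subunit of the microtubule-severing enzyme katanin, held 69.4 to 74.7 CPM in female D1 water and 54.8 to 70.9 CPM in female D1 fentanyl. In female D2 libraries Katnal1 held 37 to 49.5 CPM in water and 43.8 to 50.7 CPM in fentanyl. Its interaction was -0.32 in females and 0.13 in males, a difference of -0.45 ± 0.123 (SE). Eef1akmt1, a methyltransferase of elongation factor 1A, stood at 0.17 in females and -0.21 in males, a difference of 0.38 ± 0.0961 (SE). Its D1 medians were 83.1 CPM in male water, 75.8 in male fentanyl, 77.6 in female water and 86.5 in female fentanyl. Tmed1, a protein of the secretory pathway, differed by 0.5 ± 0.131 (SE), and Zbtb34, a zinc finger protein, by -0.68 ± 0.18 (SE).

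Abcc9 and Foxf2 are genes of pericytes, and both were near 0 in D1 libraries. Foxf2 held 0 to 0.925 CPM in D1 and 2.06 to 6.07 CPM in D2 libraries, and its interaction was 1.87 in males and -1.73 in females. Abcc9 held 0 to 0.393 CPM in D1 and 2.06 to 6.57 CPM in D2 libraries, and its interaction was -2.54 in males and 1.19 in females. Values of this size come from a few reads per D1 library, and DESeq2 called the sex difference of Foxf2 at an adjusted p of 0.0452. The endothelial and pericyte markers as a list had medians of -0.1 in males and 0.01 in females.

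Some of the largest interactions rested on a few libraries in which a gene was many times its level in the others. Hnrnpu, a nuclear RNA-binding protein, had an interaction of 2.92 ± 0.665 (SE; edgeR adjusted p = 0.339) and a median of 1.86 CPM over all libraries. It held 38.8 CPM in the second library of D2 female water, 31.4 CPM in the fourth of D1 female fentanyl and 22.2 CPM in the fifth of D1 male fentanyl. Without the first of these the interaction was 1.88. Psmd10, a chaperone of proteasome assembly, stood at 5.31 ± 1.26 (SE), and its median was 0.217 CPM. It held 41.5 CPM in the fourth library of D2 female water and 23.9 CPM in the second of D1 male fentanyl, and without the former its interaction was 2.86. Some genes of the lists with known roles in neurons, such as Rims1, Nrxn2 and Meg3, did not pass the filter on low counts. The annotation used for counting is not given in the sources used here, and whether it sets the low level of such genes in most libraries was not tested.

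Of the 6 genes that DESeq2 called, 4 were of this kind: Hnrnpu, Psmd10, Cep170b, a microtubule-binding protein, and the predicted gene Gm28437, whose stretches of 50 bases are all held by other genes too. The other 2 were Tpx2 and Kcnj11, which had no library over 5 times the median. Among genes with a mean of at least 1 CPM, 45 had an interaction beyond 2-fold, and 37 of them had at least 1 library over 5 times the median. Predicted genes, pseudogenes and mitochondrial genes made up 27 of the 45, and 9 reached a mean of 10 CPM.

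**Figure D5:**
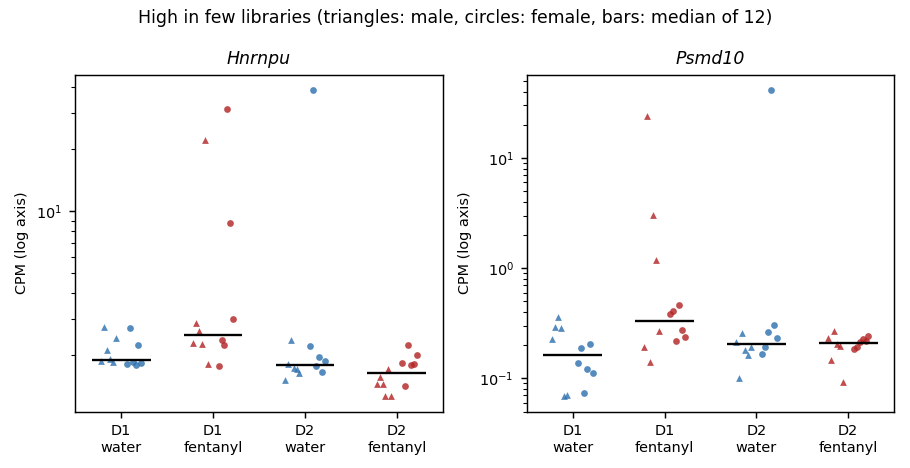
Level of Hnrnpu and Psmd10 in every library (vertical axis, CPM, log scale; triangles male, circles female; blue water, red fentanyl; bars the median of 12 libraries). Hnrnpu reaches 38.8 CPM in 1 D2 water library and Psmd10 reaches 41.5 CPM in another, while the group medians lie at 2.5 CPM or below.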

How the data were processed

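Per the labels' protocols, 4 punches per mouse went into an immunoprecipitation of tagged polyribosomes, and the Smart-Seq v4 kit made the libraries. The submitters' processing notes name TopHat2 2.0.8, HTSeq and GRCm38. The annotation release and the strand setting are not given in the sources used here. The deposited files give raw exon read counts for 54838 Ensembl genes, with no normalization. Their 5 summary lines held 22.93 ± 3.77% of reads (SD, n = 48) and were left out. Reads ambiguous between genes, 5.107% on average, and reads aligned to several places, 7.298%, are in those lines. Without strand, overlapping genes can thus lose reads, and without molecular identifiers amplified copies count as reads.

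All 48 libraries were fitted together in edgeR 4.0.16 (R 4.3.3), with TMM scaling, filterByExpr (minimum count 10, total 15), 8 group means and the two-sided quasi-likelihood test, with p-values adjusted by the Benjamini-Hochberg method over 18270 genes and a threshold of 0.05. Standard errors were taken from the F statistic, and intervals are 95% t intervals. The procedure was tested on simulated data. Levels are CPM with TMM factors; on the log2 scale 2 was the prior count. Symbols came from GENCODE M21. The labels do not say that replicate numbers mark a shared litter or day, and over 24 pairs the correlations of same-numbered libraries ran from -0.34 to 0.31, so the numbers were not taken to pair libraries. No library was a copy of another.

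Lists, comparisons and the choice of named genes were made with earlier results of these data known. The rule took genes with a mean of at least 2 CPM and a proper symbol: the 10 of smallest p on each side of 0, the 3 on each side for the sex difference, the member of smallest p from each list, and a fixed set of opioid and receptor genes, Drd1, Drd2, Adora2a and Rpl22. A few others were named after their values were seen, such as Fos, Arc, Tbr1, Cep170b and members of the cell division and potassium channel lists. Alternatives were DESeq2 1.42.0, limma 3.58.1 voom, 2 surrogate variables from sva 3.50.0, other scalings, filters and dispersion, marker scores, a replicate block, no sex term, each sex fitted apart, each library left out, and, added after the data were seen, both distant libraries left out. The values of 1 gene named by the rule are not reported here.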

Additional observations from a re-analysis of the deposited data

Results flagged for a closer look

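Each value here is the level of a gene in a library that stood apart from the other 5 of its group by Dixon's test at the 95% level. Of 592 groups of 6 libraries examined, 36 were marked (6.08%), and chance marks about 1 in 20. No explanation was tested for any of them.

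Among genes of the interaction, Tpx2 was at 4.67 CPM in the sixth D1 male water library, Hnrnpu at 22.2 CPM in the fifth D1 male fentanyl library and at 38.8 CPM in the second D2 female water library, and Psmd10 at 41.5 CPM in the fourth D2 female water library. Mybbp1a was high in D2 female fentanyl (35.4 CPM), and Smpd2 was high in D1 male fentanyl (11.6 CPM) and D1 male water (10.7 CPM). Vbp1 was low in D1 female water (84.0 CPM) and D2 male fentanyl (77.9 CPM), Scarf2 low in D1 male fentanyl (1.04 CPM) and Ppfia4 low in D2 female water (30.7 CPM). Foxf2 was high in D1 female water (0.925 CPM) and low in D2 male fentanyl (3.07 CPM).

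The sixth D1 female water library, the most distant of all, was marked for 5 genes. Capza1 (18.5 CPM), Chrm4, the M4 muscarinic receptor (6.58 CPM), Hspa5 (372 CPM) and Adora2a (30 CPM) were low in it, and Scn8a (382 CPM) was high. The fifth D1 female fentanyl library was marked for 2, with Ssh2, a cofilin phosphatase, at 41.6 CPM and Rpl22 at 43.9 CPM, both high.

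Among opioid and receptor genes, Oprd1 was low in D2 male water (7.35 CPM), Oprl1 low in D1 female fentanyl (31.2 CPM) and high in D2 female fentanyl (32.0 CPM), Penk low in D2 female water (14300.0 CPM), Pnoc low in D1 female fentanyl (7.01 CPM) and Drd1 high in D1 male water (603 CPM). Chrm4 was low in D1 male fentanyl (11.8 CPM).

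Of the remaining list genes, Rab3a was high in D2 female water (1.15 CPM), Nrp1 high in D2 male water (40.0 CPM), Eif1 low in D2 female fentanyl (926 CPM) and Atp5a1 high in D2 male fentanyl (15.3 CPM). Tnc was high in D1 female fentanyl (0.431 CPM), Cdh5 high in D2 male water (5.7 CPM) and Gja1 low in D1 male fentanyl (3.58 CPM). Hbb-bs was high in D2 female water (350.0 CPM) and Ccdc153 low in D1 male water (0.147 CPM).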

How the results depend on the processing

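The count of 0 called genes held over both sexes, in males, in females and for the sex difference in every alternative except the following. DESeq2 called 6, 3, 4 and 2 genes in that order, Foxf2 among the last (-3.73, adjusted p 0.0452), and a model with no sex term called 1, Psmd10 (7.94). With each library left out in turn the counts were 0 to 1 over both sexes (Tpx2 without D1 male water 6) and 0 to 1 in males (the predicted gene Gm7292 without D2 female fentanyl 2, a library that enters males only through the shared estimate of spread), and 0 in females and for the difference. Genes at an unadjusted p under 0.05 over both sexes numbered 825 as reported, 1261 with limma voom, 1209 with 2 surrogate variables, 1765 of 37293 with no filter and 576 of 13808 with the stricter filter.

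With a replicate block 0 genes were called in each comparison, and 781 stood at an unadjusted p under 0.05 over both sexes. Of 24 same-numbered pairs, 6 had a correlation over 0.1, and 2 libraries matched their own number best.

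Of 1037 gene values under alternatives other than leaving out a library, 1018 kept direction and side of the threshold, 6 came to pass it and 13 changed sign, all in genes near 0. With the non-neuronal score, Oprl1 was -0.02, Drd2 -0.07 and Adora2a -0.16. With the score of the other neuron type, Oprd1 was -0.02, Penk -0.03, Pdyn 0.05, Drd1 0.04, Drd2 -0.08 and Adora2a -0.16. All of these except Oprd1 are among the markers that make up that score, so that their shift is partly built in. Oprl1 was -0.02 with 2 surrogate variables and 0 without both distant libraries, Drd1 0.01 without both and Penk -0.01 with limma voom. With each library left out, Oprl1 ran from -0.02 to 0.04, Pdyn from -0.1 to 0.02, Drd1 from -0.04 to 0.03, Drd2 from -0.04 to 0.11 and Adora2a from -0.07 to 0.13. The cause was not tested. Of 602 list medians in the same alternatives, 19 changed sign, the mitochondrially encoded list among them (-0.28 with 2 surrogate variables, -0.06 with limma voom). With each library left out, 8 list medians changed sign at least once, such as D1 neuron markers (-0.06 to 0.02), astrocyte markers (-0.02 to 0.08) and excitatory pallial markers (-0.13 to 0.09), and the glutamate receptor median ran from -0.07 to 0. Depth limits genes under 1 CPM most.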
